A study of Homo sapiens with 12 samples.

Results

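The comparison described here is pomalidomide plus dexamethasone (Pd) against untreated control in MM.1S, an established human multiple myeloma cell line. Its members are the 3 Pd arrays and the 3 control arrays, taken by their group labels, which makes 6 of the 12 arrays of the series. The Pd cells received 200 nM pomalidomide and 5 nM dexamethasone for 15 hours, and the control cells were untreated, with a collection time that the sources used here do not give. The other 6 arrays are 3 of cells given 100 nM PIM447, an inhibitor of the PIM kinases, for 24 hours (PIM) and 3 of cells given all 3 agents at those doses for 10 hours (PIM-Pd). None of the 12 arrays had pomalidomide alone or dexamethasone alone, so the parts of these drugs in any difference cannot be told apart. Viability of the treated cells was 74 to 81%, total RNA went onto Clariom S gene expression arrays, and the replicates come from 3 independent experiments.

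Pomalidomide binds cereblon, the substrate receptor of a ubiquitin ligase, and directs it to the lymphoid transcription factors IKZF1 and IKZF3, which are then degraded. Myeloma cells depend on IRF4 and MYC, which lie downstream of those factors. Dexamethasone binds the glucocorticoid receptor, which enters the nucleus, raises transcription of targets such as TSC22D3 and FKBP5, and can start apoptosis in lymphoid cells.

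Each array gives 17710 features, and its values are on a log2 scale, where a difference of 1 is a 2-fold difference in signal. Array medians were 4.82 to 4.83 in control and 4.83 to 4.84 in Pd. Across features, pairs of arrays of the same group correlated at 0.987 to 0.993, and pairs of 1 Pd and 1 control array at 0.981 to 0.987. The first principal component of the 12 arrays held 33.9% of the variance. On it the Pd and PIM-Pd arrays lay between 10.64 and 21.68, and the control and PIM arrays between -22.23 and -11.35. Of 11 listed plasma cell markers, 4 could be named, with mean control levels of 12.01 for CCND2, 10.07 for IRF4, 9.94 for SLAMF7 and 8.46 for CD38. Of the listed markers of B cells, T cells and stromal cells, 1 each could be named (CR2 5.26, CD3E 4.63 and VIM 8.17), and none of the myeloid or erythroid markers could. CR2 was lower in Pd than in control by -0.80 (adjusted p = 0.0499, and 0.0553 to 0.308 when a replicate was left out). CD3E was at -0.47 (0.137, and 0.0349 without replicate 2) and VIM at -0.13 (0.675), and the part of these markers in other results was not tested. Levels of different genes on an array are not on one scale. In RNA from a whole culture, fewer cells of a state and less RNA per cell cannot be told apart, and 3 arrays per group limit the precision.

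Pd changed 1181 of the 17710 features (6.67%) against control, and more of them rose than fell. There were 738 rises (4.17%) and 443 falls (2.50%). Among changes of at least 2-fold, 162 features rose (0.915%) and 29 fell (0.164%). The 4 largest rises among named genes were in DDIT4, TPBG, DKK1 and TSC22D3, and the falls took in IRF4, serine and amino acid supply genes, sterol synthesis genes and replication genes. Of these, IRF4 kept its call when any replicate was left out. Without replicate 3, called falls went from 9 to 4 in the amino acid group and from 9 to 2 in the sterol group. Replication falls called by limma went from 11 to 0 there, with 14 at an unadjusted p under 0.05. Of the 738 rises, 736 were higher in each of the 3 pairs of arrays, and the 443 falls were lower in each of them, which the call on those same pairs largely fixes. The called genes named below likewise differed the same way in all 3 pairs. Where called genes are said below to have no overlap between groups, the call on those same arrays largely fixes that too. It describes their levels and is no further evidence, and the share over all features was not counted. Leaving out replicate 1 gave 307 rises and 101 falls, leaving out replicate 3 gave 215 and 70, and leaving out replicate 2 gave 656 and 328. Symbols could be given to 1901 features, 1072 of the 1181 called ones among them (695 rises and 377 falls). These symbols come from the study's own tables of genes called changed on these arrays, so the counts for gene groups below describe the named members and are no independent evidence on a whole group. Of all 1901 named features 36.6% rose and 19.8% fell, and the share of a group's named members is to be read beside those.

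**Figure D1:**
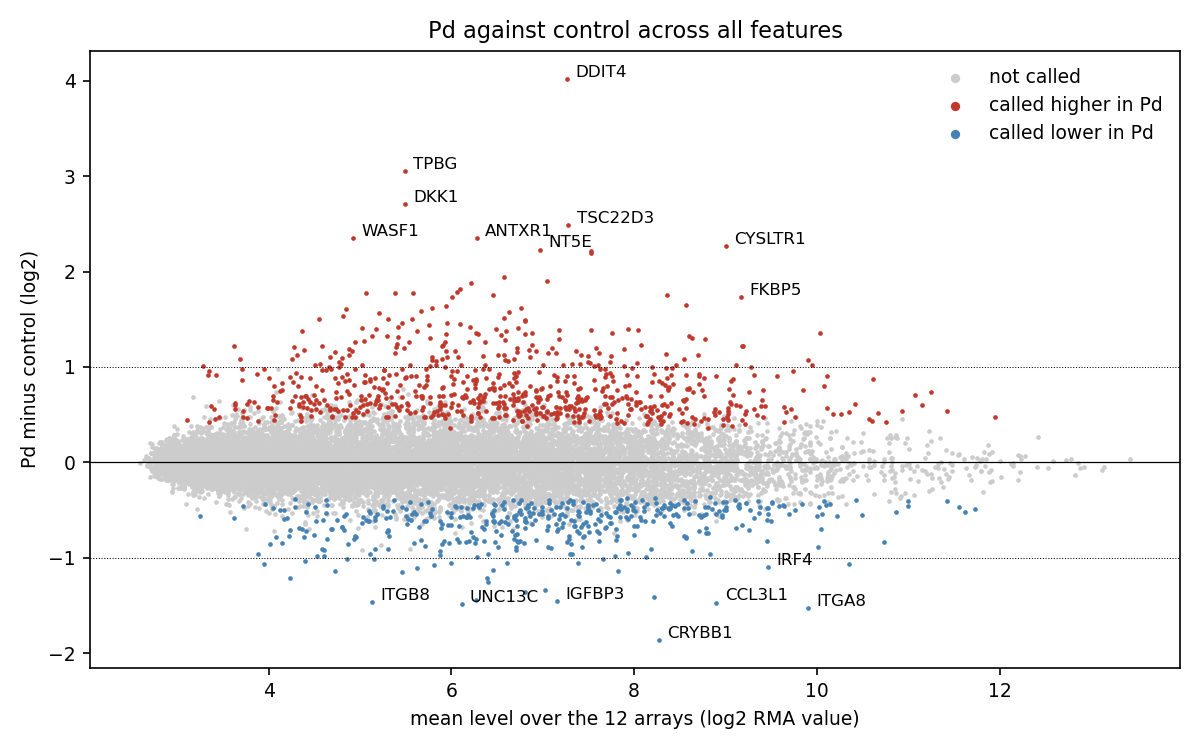
Each point is a feature, with its mean log2 level over the 12 arrays on the horizontal axis and its log2 difference, Pd minus control, on the vertical axis; red points were called higher, blue points lower, and grey points were not called. Rises extend to 4.02, well beyond the deepest fall at -1.86, and dotted lines mark 1 and -1.

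DDIT4, which encodes an inhibitor of mTORC1 that is induced by glucocorticoids and by stress, rose the most of the named genes. Its levels were 5.20, 5.42 and 5.15 in the 3 control arrays and 9.29, 9.20 and 9.34 in the 3 Pd arrays, in the order of replicates 1 to 3. That is a rise of 4.02 (95% confidence interval 3.75 to 4.29), or 16.2-fold, with an adjusted p of 1.77e-09. TPBG, a trophoblast glycoprotein that modulates Wnt signalling, went from 3.89, 4.21 and 3.77 to 7.20, 6.60 and 7.21, 8.30-fold higher (adjusted p = 3.47e-06). The secreted Wnt antagonist DKK1 stood at 4.41, 3.88 and 3.79 in control and at 7.19, 6.44 and 6.60 in Pd, a rise of 2.71 (adjusted p = 4.85e-06). In none of these genes did the control and Pd arrays overlap. WLS, needed for Wnt secretion, rose by 1.94. WASF1, an actin regulator, and ANTXR1, an anthrax toxin receptor, each rose by 2.35. CYSLTR1, a receptor for cysteinyl leukotrienes, rose by 2.27, from 7.98, 7.87 and 7.80 to 10.20, 10.00 and 10.25. NT5E, the ectoenzyme CD73 that makes adenosine from AMP, rose by 2.23, the calcium pump ATP2B4 by 2.21 and the fatty acyl-CoA reductase FAR2 by 2.19.

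Falls were smaller. The deepest among the named genes was that of CRYBB1, a lens crystallin, with control levels of 9.28, 9.26 and 9.42 and Pd levels of 7.17, 7.52 and 7.67 (difference -1.86, 95% confidence interval -2.43 to -1.30, adjusted p = 0.000887). ITGA8, an integrin subunit, read 10.52, 10.72 and 10.71 in control and 9.07, 9.13 and 9.16 in Pd (difference -1.53, adjusted p = 1.67e-05). Neither gene's groups overlapped. The vesicle priming factor UNC13C fell by 1.49, the integrin subunit ITGB8 by 1.46, IGFBP3, which binds insulin-like growth factors, by 1.45, and the fatty acid transporter SLC27A2 by 1.44. LRP8, a receptor for apolipoprotein E, fell by 1.36, the meiotic chromosome protein SYCP3 by 1.34 and CCDC167 by 1.21. The chemokine gene CCL3L1 fell by 1.47, on probes that may not separate it from its near-identical copy CCL3. Without replicate 3, the adjusted p was 0.1 for ITGB8 (difference -1.52) and 0.0605 for CCL3L1 (-1.26). The difference for ITGB8 was -0.95 without replicate 1 and -1.91 without replicate 2.

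**Figure D2:**
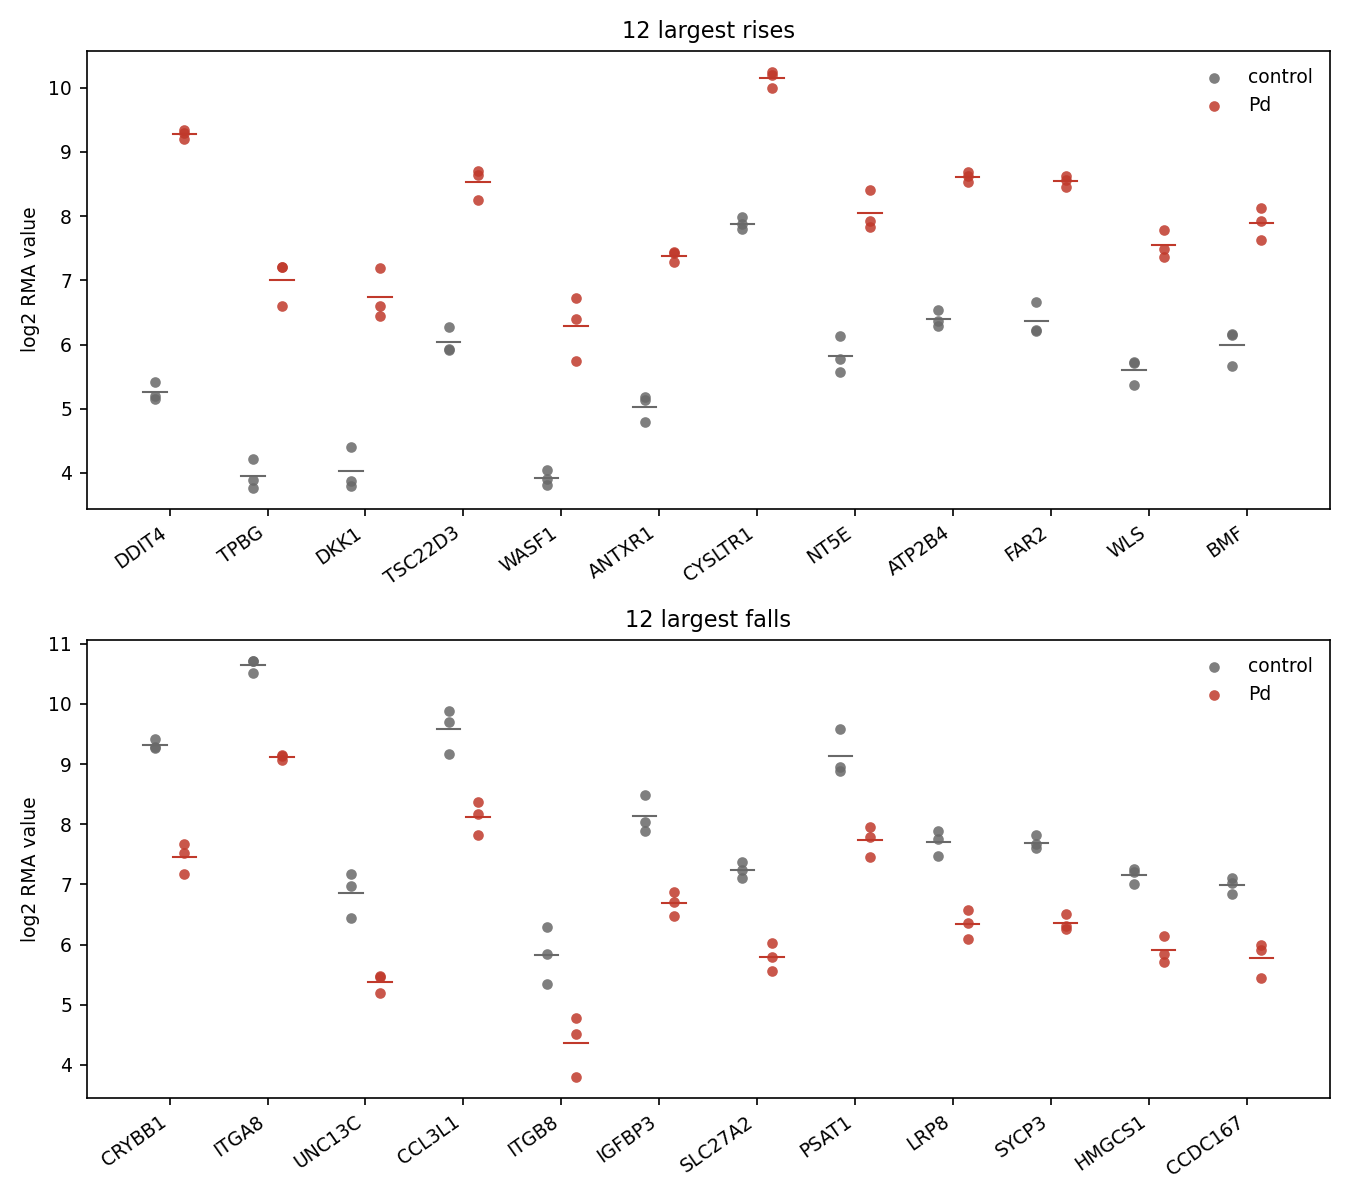
Log2 levels on each array for the 12 named genes with the largest rises and the 12 with the largest falls, control in grey, Pd in red, with a line at each group's mean. The DDIT4 arrays lie at 5.15 to 5.42 in control and at 9.20 to 9.34 in Pd.

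Of 9 named glucocorticoid receptor targets (31 listed), 4 rose, DDIT4 and TSC22D3 among them, a share near the 36.6% of all named features. TSC22D3, which encodes the glucocorticoid-induced leucine zipper GILZ, was at 5.93, 5.92 and 6.27 in control and at 8.70, 8.25 and 8.64 in Pd. The rise was 2.49 (2.09 to 2.89), or 5.62-fold, with an adjusted p of 7.84e-06. FKBP5, a co-chaperone that lowers hormone binding by the receptor, went from 8.39, 8.25 and 8.51 to 10.12, 10.02 and 10.20, or 3.31-fold (adjusted p = 4.99e-05). The arrays of the groups did not overlap in either gene. TXNIP, which binds thioredoxin and limits glucose uptake, rose by 1.75 from 6.66, 7.78 and 8.04 to 9.26, 8.85 and 9.61 (adjusted p = 0.000814). The other 5 members did not pass the test: FOXO1 at 0.54 (adjusted p = 0.0683), GLUL at 0.38, KLF9 at 0.32, ERRFI1 at -0.45 and SGK1 at -0.59 (0.06). Without replicate 2, KLF9 passed (0.61, adjusted p = 0.0255), as did SGK1 (-0.64, 0.0364).

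The glucocorticoid response element, read as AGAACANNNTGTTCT on either strand, occurred in 1 of the 35116 RefSeq promoter windows searched (0.00285%), each running from 250 bases before a transcription start to 50 after it. Its inner core ACANNNTGT occurred in 5.37% of all windows, in 4.21% of the 927 windows of 568 genes that rose and in 3.30% of the 454 windows of 305 genes that fell. The core lay in 2 of 4 windows of TSC22D3 and in 1 of 2 of TXNIP, and in no window of FKBP5 or DDIT4. Those 2 windows of TSC22D3 overlap, and the match in each is the same site. Enhancers further away were not searched, and a match to letters does not show binding.

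In the cereblon group, 3 of 7 named members (21 listed) rose and 1 fell, beside rises in 36.6% and falls in 19.8% of all named features. IKZF1 transcript was higher, at 8.24, 8.58 and 8.53 in control and 9.38, 9.36 and 9.35 in Pd, with no overlap (difference 0.91, 0.60 to 1.22, adjusted p = 0.00203). RNA levels say nothing about the amount of the degraded protein. IKZF3 was at 0.33 (adjusted p = 0.0988), and cereblon itself, CRBN, at 0.22 (0.259), neither of which passed, nor did CUL4A at -0.13. The zinc finger genes ZBTB39 and ZNF827 rose by 0.81 and 0.66, and GSPT1, a translation termination factor, fell by 0.43 (adjusted p = 0.0396). The rises were fewer without replicate 1 (1) and replicate 3, where limma called 0 (3 at an unadjusted p under 0.05) and IKZF1 had an adjusted p of 0.0569. Adjusted p-values in the 3 fits that leave out a replicate were 0.128 to 0.241 for GSPT1 and 0.0739 to 0.132 for ZBTB39, and 0.101 and 0.222 for ZNF827 without replicates 1 and 3.

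IRF4, the transcription factor on which plasma cells and myeloma cells depend, fell by 1.10 (95% confidence interval -1.37 to -0.84, adjusted p = 0.000176). Its levels were 9.94, 10.24 and 10.02 in control and 8.90, 9.03 and 8.96 in Pd, without overlap. Of 6 named plasma cell genes (19 listed), 3 rose and 2 fell, beside rises in 36.6% and falls in 19.8% of all named features. The surface receptor SLAMF7 fell by 0.50 (adjusted p = 0.026), from 10.13, 9.79 and 9.90 to 9.44, 9.37 and 9.51, and was not called without the replicate block (0.0839). CREB3L2, a transcription factor of the secretory pathway, rose by 0.78, the surface receptor GPRC5D by 0.60 and DERL3, which acts in degradation of proteins from the endoplasmic reticulum, by 0.53, while CD38 was at 0.17 (adjusted p = 0.425). Leaving out replicate 1 or replicate 2 left 1 of these 3 rises, and leaving out replicate 3 left 0 called by limma (3 at an unadjusted p under 0.05). IRF4 was the 1 fall called in each of those fits. There, SLAMF7 had adjusted p-values of 0.0541 to 0.271, GPRC5D of 0.0534 to 0.0911 and DERL3 of 0.053 to 0.176, and CREB3L2 had 0.0732 without replicate 3.

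MYC sat at 9.21, 9.65 and 9.59 in control and at 9.04, 9.10 and 8.99 in Pd, without overlap, a fall of 0.44 that passed narrowly (adjusted p = 0.0475). It did not pass without the replicate block (0.109) or without replicate 1 (0.0765), 2 (0.228) or 3 (0.352). Within the MYC network, 1 of 5 named members (11 listed) rose and 1 fell. The rise was that of MXD4, which competes with MYC for its partner MAX (0.82, adjusted p = 0.0101), and it was lost without replicate 1 (0.142) or 3 (0.152). MXD1 at 0.42, MLXIP at 0.39 and MXI1 at -0.34 did not pass. When a replicate was left out, MXD1 ran from 0.16 to 0.70 and MXI1 from -0.51 to -0.24.

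Interferon-stimulated genes rose in 11 of 17 named cases (52 listed), and the other 6 did not pass the test. IFIT3, which restrains viral RNA, went from 4.24, 3.76 and 4.04 to 5.39, 5.61 and 5.63, a rise of 1.53 (0.98 to 2.08), or 2.88-fold, with an adjusted p of 0.00294. DTX3L, a ubiquitin ligase that pairs with PARP9, rose by 1.32 from 4.88, 4.53 and 4.71 to 6.13, 5.62 and 6.33 (adjusted p = 0.000158). STAT2, which carries the type I interferon signal to the nucleus, was at 6.56, 6.59 and 7.02 in control and at 7.85, 7.58 and 7.82 in Pd (difference 1.03, adjusted p = 0.00152). Control and Pd arrays did not overlap in these genes. The exonuclease ISG20 rose by 1.04, the ADP-ribosyltransferase PARP14 by 0.90, the RNA sensor OAS1 by 0.72 and PARP9 by 0.62. PARP9 was dim, at 3.51, 3.16 and 3.20 in control and 3.77, 3.86 and 4.09 in Pd. The 25th percentile of mean level over all features was 3.63, and the filter at that level left PARP9 out. LAMP3, IFI6, TLR7 and IRF1 rose by 0.67, 0.60, 0.56 and 0.52, with arrays that overlapped between groups in TLR7. MX2 at 0.66 (adjusted p = 0.0633), DHX58 at 0.56, OAS3 at 0.45, SP110 at 0.44, SAMD9L at 0.16 and IFIH1 at 0.09 were not called. The 11 rises became 6 without replicate 1 (adjusted p 0.051 for ISG20, 0.09 for LAMP3, 0.111 for IRF1, 0.166 for IFI6, 0.21 for TLR7), 9 without replicate 2 (0.0779 for IFI6, 0.141 for PARP9) and 6 without replicate 3 (0.0732 for LAMP3, 0.114 for IFI6, 0.151 for TLR7, 0.24 for IRF1, 0.303 for PARP9). Without the replicate block there were 8, with IFI6 (0.0609), LAMP3 (0.0746), OAS1 (0.0811) and TLR7 (0.29) lost and OAS3 (0.0495) gained. IFIH1 was at -0.07 without replicate 1 (adjusted p = 0.92).

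Among the 6 named genes of MHC class I presentation (18 listed), 3 rose, beside rises in 36.6% of all named features. ERAP2, which trims peptides for loading onto class I molecules, was at 7.77, 7.54 and 7.48 in control and at 8.47, 8.54 and 8.79 in Pd, with no overlap (difference 1.00, adjusted p = 0.000525). HLA-F rose by 0.51 and the peptide transporter TAP1 by 0.50, and neither passed in the fits that leave out a replicate (0.131 to 0.176 and 0.131 to 0.179), so that 1 rise was called in each. HLA-E, HLA-B and PDIA3 had differences of 0.32 to 0.35 and did not pass.

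The interferon-stimulated response element, read as GAAANNGAAA on either strand, occurred in 3.57% of the 35116 windows, 4.21% of windows of genes that rose and 2.20% of windows of genes that fell. Among the interferon-stimulated genes that rose, 9 of 11 had windows, and 7 of their 11 windows held it (63.6%). The windows of PARP9 and DTX3L overlap, and the match counted for each is the same site. Of the 6 named ones that were not called, 4 had windows, and 2 of their 5 windows held it. Outside the list, RTP4, an interferon-induced gene that rose by 1.33 (adjusted p = 0.000107), had 2 matches, and CXCL10, an interferon-induced chemokine gene that fell by 1.21 (adjusted p = 0.0133, and 0.0506 and 0.128 without replicates 1 and 3), had 1. The stretches printed here are RefSeq sequence on GRCh38.p14, read along each gene's strand, with 15 bases on each side of the matches, and the capitals mark the matches. The stretches of IFIT3 come from its 2 windows on the plus strand and lie at chr10:89327826-89327899 and chr10:89332420-89332502. That of IFI6 lies on the minus strand at chr1:27672261-27672363, ISG20 on the plus strand at chr15:88638932-88638971, and PARP14 on the plus strand at chr3:122680795-122680834. These 4 genes are examples chosen after the matches were seen. PARP9 and DTX3L also had a match, the same site for both, and are not shown. A match is a description of sequence alone.
IFIT3, upstream start: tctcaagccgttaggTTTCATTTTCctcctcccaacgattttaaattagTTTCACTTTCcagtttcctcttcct
IFIT3, downstream start: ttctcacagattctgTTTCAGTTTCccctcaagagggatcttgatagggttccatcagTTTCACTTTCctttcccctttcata
IFI6: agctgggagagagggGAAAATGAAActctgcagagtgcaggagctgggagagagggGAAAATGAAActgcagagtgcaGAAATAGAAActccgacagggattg
ISG20: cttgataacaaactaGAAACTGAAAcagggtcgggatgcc
PARP14: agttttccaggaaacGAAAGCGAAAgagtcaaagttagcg

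Of 19 named replication genes (54 listed), 11 fell, 1 rose and 7 did not pass. CDC6, which loads the replicative helicase, fell by 1.01 from 8.49, 8.14 and 8.23 to 7.34, 7.37 and 7.14 (adjusted p = 0.00457). MCM6, a helicase subunit, read 7.40, 7.30 and 7.38 in control and 6.49, 6.67 and 6.37 in Pd (difference -0.85, adjusted p = 0.00619). There was no overlap between groups in either. The sliding clamp PCNA fell by 0.74, whereas thymidine kinase TK1 rose by 0.53 (0.0859 without the replicate block). The 11 falls became 2 without replicate 1, where PCNA had an adjusted p of 0.0799 and TK1 of 0.107, and limma called 0 without replicate 3 (14 at an unadjusted p under 0.05), where CDC6 was at 0.0902, MCM6 at 0.154, PCNA at 0.124 and TK1 at 0.15. Without the replicate block there were 7 falls and 0 rises called by limma (1 rise at an unadjusted p under 0.05).

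Of 10 named G1 regulators (25 listed), 4 fell and 2 rose. E2F1, the transcription factor that opens the S phase programme, fell by 1.06, from 6.53, 6.93 and 6.63 to 5.45, 5.72 and 5.74, without overlap (adjusted p = 0.000684). The D-type cyclins went in different directions: CCND1 fell by 0.70 (adjusted p = 0.00265) and CCND2 by 0.47 (0.0233), and CCND3 rose by 0.65 (0.0208). CCND2 was at 12.11, 11.90 and 12.02 in control and 11.49, 11.59 and 11.54 in Pd, without overlap. CDK4 fell by 0.36 (adjusted p = 0.0462), and CDKN1A, the p21 inhibitor of cyclin-dependent kinases, rose by 0.56 (0.0345). E2F1 alone kept its call in each fit that leaves out a replicate. The falls numbered 3 without replicate 1 (E2F1, CCND1 and CCNE2, the last at 0.0356), 3 without replicate 2 (E2F1, CCND1 and E2F8, the last at 0.0248) and 1 without replicate 3 (CCND1 0.0578), with CCNE2 (0.0667) and E2F8 (0.161) not called on all replicates. Rises called by limma numbered 0 without replicate 1 (CCND3 0.169, CDKN1A 0.267) or 3 (0.209 and 0.0639), with both at an unadjusted p under 0.05. CDKN1A was also the 1 rise among 4 named p53 targets (21 listed), where TP53I3 at 0.28, XPC at 0.35 and AEN at -0.47 did not pass (AEN did without replicate 2, 0.0288). Of 3 named mitosis genes (42 listed), CDC25C, a phosphatase that activates CDK1, rose by 0.58 (adjusted p = 0.0367, and 0.111 without the replicate block), and ASPM at -0.01 and MAD2L1 at -0.53 did not pass (MAD2L1 did without replicate 2, 0.0289, and ASPM was at 0.06 without replicate 1). In the 3 fits that leave out a replicate, adjusted p was 0.0534 to 0.228 for CCND2, 0.143 to 0.353 for CDK4 (0.0717 without the replicate block), 0.0639 to 0.267 for CDKN1A and 0.0736 to 0.249 for CDC25C.

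Ribosome biogenesis had the most named members, 35 (65 listed), of which 10 fell and 25 did not pass, beside falls in 19.8% of all named features. UTP20, a processing factor of the small subunit, fell by 0.76 from 7.34, 7.15 and 7.12 to 6.35, 6.49 and 6.47 (adjusted p = 0.00636). RRP1B, a nucleolar protein, fell by 0.64 from 8.15, 8.27 and 8.14 to 7.58, 7.42 and 7.65 (adjusted p = 0.00409). The groups did not overlap in either. PNO1, which acts late in small subunit assembly, fell by 0.88. FBL, the methyltransferase of nucleolar RNA, was at -0.28 (adjusted p = 0.174). Without replicate 1 or replicate 3, 1 fall was called (adjusted p of PNO1 0.0628 and 0.118, of UTP20 0.0501 and 0.0689), and RRP1B had 0.0531 and 0.0511 without replicates 1 and 2. With no replicate block 7 falls were called, and WDR12 (0.0845), POLR1E (0.0737) and HEATR1 (0.0501) lost the call. None of the 77 listed ribosomal proteins of the cytosol could be named.

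Translation initiation had 7 named members (38 listed), and 2 fell: EIF4EBP1, the repressor of cap binding, by 0.52 (adjusted p = 0.0338) and the scaffold EIF4G1 by 0.37 (0.0469). PDCD4, another repressor, was at 0.51 (0.0937). Both falls missed the threshold without the replicate block (0.0753 and 0.0974) and in the fits that leave out a replicate (0.0802 to 0.226 and 0.0911 to 0.336), and limma called 0 of the 7 lower without replicate 1 (4 at an unadjusted p under 0.05) or 3 (2). In the mTORC1 group, with 4 named members (30 listed), DDIT4 rose and 2 members fell. SLC7A5, which imports leucine and other large amino acids, went from 8.43, 8.56 and 8.49 to 7.53, 7.81 and 7.71, without overlap (difference -0.81, adjusted p = 0.000887). MLST8, a subunit of the complex, fell by 0.40 (adjusted p = 0.04), and DEPTOR was at 0.09 (0.872). MLST8 was not called in the fits without replicate 1 (0.21), 2 (0.174) or 3 (0.235).

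Genes of the ATF4 amino acid response fell in 9 of 11 named cases (40 listed). PSAT1 and PHGDH are enzymes of serine synthesis. PSAT1 was at 9.59, 8.95 and 8.88 in control and at 7.79, 7.96 and 7.46 in Pd (difference -1.41, -1.76 to -1.05, adjusted p = 0.000217), and PHGDH at 6.31, 6.28 and 6.12 against 4.89, 5.50 and 4.98 (difference -1.11, adjusted p = 0.00133). SLC7A11, which brings in cystine, fell by 1.14 from 6.05, 5.30 and 5.22 to 4.66, 4.32 and 4.17 (adjusted p = 0.000209). Groups did not overlap in any of these. Asparagine synthetase ASNS fell by 1.05, the mitochondrial folate enzyme MTHFD2 by 0.71 and the glutamine carrier SLC1A5 by 0.54. PYCR1 at -0.48 and ALDH18A1 at -0.43, both of proline synthesis, did not pass. The 9 falls became 4 without replicate 1 (ASNS 0.0501), 5 without replicate 2 and 4 without replicate 3 (MTHFD2 0.0632), and SLC1A5 had adjusted p-values of 0.062 to 0.112 in those fits.

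In the unfolded protein response and secretory group, 3 of 7 named members (45 listed) rose and 2 fell. Of all named features, 36.6% rose and 19.8% fell. SEL1L, the adaptor of the HRD1 ligase that clears misfolded proteins, fell by 0.89 from 10.59, 10.29 and 10.24 to 9.60, 9.35 and 9.49, without overlap (adjusted p = 0.000492). The chaperone HSP90B1 fell by 0.49 (adjusted p = 0.0426, and 0.0511 to 0.308 in the fits that leave out a replicate). CREB3L2, HERPUD1 and DERL3 rose by 0.78, 0.54 and 0.53. HERPUD1 lost the call without replicate 2 (0.078) or 3 (0.176), CREB3L2 without replicate 3 (0.0732), and DERL3 without replicate 1 (0.0782), 2 (0.053) or 3 (0.176). The rises were 1 without replicate 2 and 0 by limma without replicate 3 (4 at an unadjusted p under 0.05), and SEL1L was the 1 fall in each of those fits. Among 4 named proteasome subunits (32 listed), PSMB6 fell by 0.57 (adjusted p = 0.0143, and 0.126 and 0.209 without replicates 1 and 3). The 1 named heat shock gene of 13 listed, the mitochondrial chaperone HSPD1, fell by 0.52 (0.0123, and 0.0907 and 0.22 without replicates 1 and 3).

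Sterol synthesis and uptake fell in 9 of 11 named genes (30 listed). HMGCS1, which makes HMG-CoA, had a mean of 7.15 (SD 0.13, n = 3) in control and was at 6.15, 5.85 and 5.71 in Pd (difference -1.25, -1.55 to -0.95, adjusted p = 0.000176). Squalene epoxidase, SQLE, was at 4.74, 5.05 and 4.81 in control and at 4.06, 4.27 and 3.94 in Pd (difference -0.78, adjusted p = 0.000949). Neither gene's groups overlapped. INSIG1, which holds the sterol sensor in the endoplasmic reticulum, fell by 0.95 and MSMO1 and DHCR7, late enzymes of the pathway, by 0.83 and 0.70. Of 5 named genes of fatty acid synthesis (16 listed), fatty acid synthase FASN fell by 0.89, from 7.81, 8.43 and 8.06 to 7.13, 7.34 and 7.15 (adjusted p = 0.00149), and the desaturase SCD by 0.64 (0.0325). Without replicate 1 the sterol falls were 5, and without replicate 3 they were 2, with INSIG1 at an adjusted p of 0.107, MSMO1 at 0.119 and DHCR7 at 0.154. FASN (0.0559) and SCD (0.274) were not called without replicate 3, when limma called 0 of the 5 lower (3 at an unadjusted p under 0.05), nor was SCD without replicate 2 (0.149).

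Of 9 named glycolysis genes (26 listed), 3 fell and 1 rose. The rise was that of PFKFB2, which makes the activator of phosphofructokinase, from 5.21, 4.66 and 4.93 to 6.89, 6.04 and 6.78, without overlap (difference 1.64, or 3.12-fold, adjusted p = 3.11e-05). Hexokinase HK2 fell by 0.77 (adjusted p = 0.0472), the lactate carrier SLC16A1 by 0.44 and enolase ENO1 by 0.41 (0.0423), and in the fits that leave out a replicate the last pair had adjusted p-values of 0.085 to 0.212 and 0.0536 to 0.369. By limma, 0 of the 9 named genes were called lower without replicate 1 (HK2 0.0706) or 3 (0.368), and 1 was called lower without replicate 2. Without replicates 1 and 3, 5 and 3 of the 9 were lower at an unadjusted p under 0.05. Cytochrome c, CYCS, fell by 0.82 (adjusted p = 0.0167) and NDUFAB1 by 0.62 (0.0166), the 2 falls among 5 named genes of the respiratory chain (54 listed), and neither was called without replicate 1 (0.21 and 0.198) or 3 (0.214 and 0.0849), where 4 and 3 of the 5 were lower at an unadjusted p under 0.05 in limma. The E-box CACGTG, a site read by MYC and other factors and the same on both strands, occurred in 7.26% of all windows, 6.58% of windows of genes that rose and 13.9% of windows of genes that fell (63 of 454).

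Survival and signalling genes gave a few large differences. BMF, a BH3-only protein that promotes apoptosis, rose by 1.90, or 3.74-fold, from 6.17, 5.66 and 6.15 to 7.93, 7.63 and 8.13 (adjusted p = 2.01e-06). It was the 1 rise among 4 named BCL2 family genes (17 listed), with MCL1 at 0.47 (0.051), BCL2 at 0.06 (0.902) and BID at -0.38 not called. Of 5 named feedback genes of the MAPK pathway (20 listed), 4 rose and 1 fell. SPRY1 went from 4.85, 5.09 and 5.64 to 6.99, 6.87 and 7.10 (difference 1.79, adjusted p = 7.85e-05), and the phosphatase DUSP4 from 8.36, 8.49 and 8.57 to 9.26, 9.17 and 9.27 (difference 0.76, adjusted p = 0.000833). Arrays of the groups were apart in all 3 of these genes. SPRED2 and SPRED1 rose by 0.60 and 0.57, and DUSP7 fell by 0.65 (0.115 without the replicate block). The 4 rises became 2 without replicate 1 (adjusted p 0.084 for SPRED1, 0.107 for SPRED2) or 3 (0.148 and 0.246), and 3 without replicate 2 (0.0588 for SPRED2). DUSP7 had 0.0992 to 0.179 in those fits, and BCL2 was at -0.06 without replicate 3 (0.955).

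PIM1, which encodes a kinase of the family that PIM447 inhibits, was lower in Pd, at 7.57, 7.59 and 7.60 against 8.65, 8.82 and 8.26 in control (difference -0.99, adjusted p = 0.00137). STAT3, the main transcription factor of interleukin-6 signalling, rose by 0.97 from 5.94, 5.46 and 5.71 to 6.88, 6.45 and 6.69 (adjusted p = 0.000887). Neither gene showed overlap. With SOCS2 at 0.78 and the shared receptor chain IL6ST at 0.58, the PIM and interleukin-6 group had 3 rises and 1 fall among 5 named members (18 listed). SOCS2 was not called without replicate 2 (0.115) or 3 (0.118), nor IL6ST without replicate 1 (0.117) or 3 (0.132), which left 2, 2 and 1 rises. The chemokines CCL3 and CCL4 differed in direction. CCL3 fell by 1.07 from 11.00, 10.64 and 10.85 to 9.89, 9.90 and 9.49 (adjusted p = 0.0101), and CCL4 rose by 1.57 from 4.57, 4.11 and 4.22 to 5.52, 6.22 and 5.86 (0.0188), each without overlap. They are the 1 fall and the 1 rise among 3 named NF-kB genes (22 listed). BIRC3 was at 0.26, and at 0.06 to 0.42 when a replicate was left out. Without replicate 3 neither chemokine passed (CCL3 0.182, CCL4 0.171), so limma called 0 each way there (1 lower and 2 higher at an unadjusted p under 0.05).

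Adhesion and homing genes rose in 6 of 8 named cases (26 listed), and ITGA8 fell. NCAM1, the adhesion molecule CD56, was at 5.82, 6.21 and 6.44 in control and at 7.44, 7.45 and 7.71 in Pd (difference 1.38, adjusted p = 0.000381). The chemokine receptor CCR2 rose by 1.15 from 6.71, 7.15 and 6.95 to 8.05, 7.92 and 8.28 (adjusted p = 0.000316). CXCR4, the receptor that holds plasma cells in marrow, rose by 0.77 from 8.40, 8.83 and 8.49 to 9.23, 9.31 and 9.50 (adjusted p = 0.00184). Groups were apart in these genes. The integrins ITGB1 and ITGB5 rose by 0.79 and 0.75 and CD9 by 0.45 (adjusted p 0.0886 to 0.171 in the fits that leave out a replicate). Without replicate 3 the 6 rises became 2, with CXCR4 at an adjusted p of 0.0768, ITGB5 at 0.0751 and ITGB1 at 0.0551.

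Of 5 named bone disease factors and chemokines (16 listed), DKK1 and CCL4 rose, CCL3 and CCL3L1 fell, and VEGFA was at -0.43 and not called. Without replicate 3, DKK1 was the 1 rise, and limma called 0 falls (3 at an unadjusted p under 0.05), with CCL3 at an adjusted p of 0.182, CCL3L1 at 0.0605 and CCL4 at 0.171. Among 6 named targets of immunotherapy (22 listed), NCAM1, GPRC5D, LY9 and CD74 rose, the last by 0.52, and SLAMF7 fell. NCAM1 was the 1 of these called in each fit that leaves out a replicate. In those fits the adjusted p-values were 0.0534 to 0.0911 for GPRC5D, 0.0678 to 0.263 for LY9, 0.0801 to 0.236 for CD74 and 0.0541 to 0.271 for SLAMF7, which was also at 0.0839 without the replicate block.

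**Figure D3:**
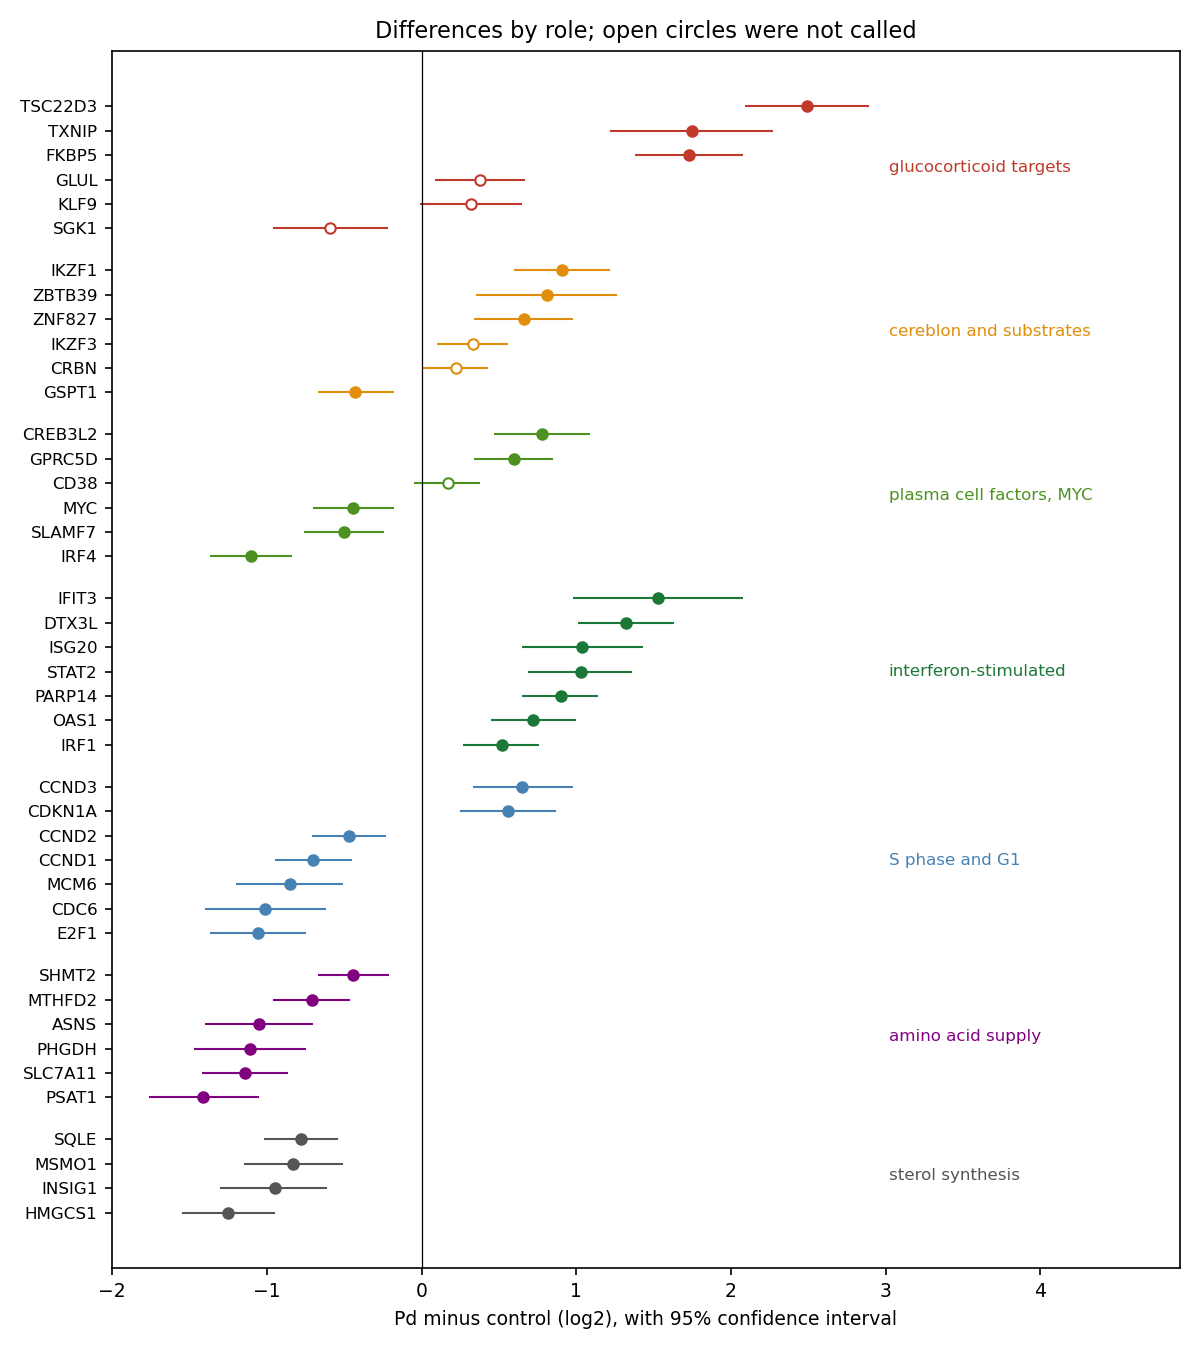
Log2 difference, Pd minus control, with its 95% confidence interval for named genes grouped by role; filled circles were called and open circles were not. Among the genes drawn here, TSC22D3 stands highest at 2.49 and PSAT1 lowest at -1.41. The genes drawn are a selection. The interferon, S phase and G1, amino acid supply and sterol groups also hold members that were not called, and these are not drawn. TK1, a replication gene that rose, is not drawn either.

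Few features passed the test between Pd and PIM-Pd, which had the same drugs at the same doses with PIM447 added. PIM-Pd cells were treated for 10 hours and Pd cells for 15, so the added drug and the time cannot be told apart. Of 17710 features, 11 were called (0.0621%), 8 higher and 3 lower in Pd. GRHL3, an epithelial transcription factor, was at 7.92, 8.04 and 8.07 in Pd and at 6.99, 6.79 and 6.91 in PIM-Pd (difference 1.11, 0.83 to 1.39, adjusted p = 0.00979). WDR77, the partner of the arginine methyltransferase PRMT5, was at 6.51, 6.38 and 6.56 in Pd and at 5.65, 5.61 and 5.50 in PIM-Pd, and at 6.68, 6.70 and 6.61 in control (Pd minus PIM-Pd 0.89, adjusted p = 0.00979). The groups did not overlap in either. TGFBR3, a co-receptor for TGF-beta, was higher in Pd by 0.99 (adjusted p = 0.0443) and the aminotransferase KYAT1 by 0.97 (0.0146). VIM, the intermediate filament vimentin, was lower in Pd by -0.96 (adjusted p = 0.0125) and the steroid reductase AKR1C3 by -0.93 (0.0146). These 6 genes lost the call in each fit that leaves out a replicate, with adjusted p-values of 0.204 to 0.219 without replicate 1, 0.0508 to 0.0963 without replicate 2 and 0.294 to 0.468 without replicate 3. They also lost it when the 2 groups alone were fitted with the block, where limma called 0 features (1844 at an unadjusted p under 0.05). With those 2 groups and no block GRHL3 kept the call and the other 5 lost it. On all 12 arrays with no block, VIM (0.122) and AKR1C3 (0.0806) lost it.

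Several genes with large differences against control were not called between Pd and PIM-Pd. DDIT4 differed by 0.06 (-0.21 to 0.33, adjusted p = 0.923), TSC22D3 by -0.33 (0.577), IRF4 by 0.02 (0.97), PSAT1 by 0.03 and HMGCS1 by -0.04. DKK1 differed by -0.59 (adjusted p = 0.299), FAR2 by -0.59 (-0.99 to -0.19, 0.289) and NCAM1 by 0.74 (0.144). TGFBR3, which was called between these groups, was also higher in Pd than in control, by 1.08 (adjusted p = 0.000966, and 0.0528 without replicate 3). MYC was at 0.41 (0.14 to 0.67, adjusted p = 0.268) and CCND2 at 0.60 (0.0715). A p-value that misses the threshold does not show that the groups were alike.

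Against PIM447 alone, given for 24 rather than 15 hours, Pd differed in 761 features (4.30%), 545 higher and 216 lower. DDIT4 was at 5.42, 5.27 and 5.16 in PIM, 3.99 below its level in Pd (adjusted p = 1.91e-09). DKK1 was higher in Pd by 2.88, TSC22D3 by 2.86, TPBG by 2.74 and WASF1 by 2.57. Lower in Pd were ITGA8 (-1.66, adjusted p = 9.72e-06, with PIM levels of 10.86, 10.72 and 10.75), ITGB8 (-1.46), the neuronal guidance gene NAV2 (-1.38), CRYBB1 (-1.33) and PIM1 (-1.28). PIM1 was at 9.13, 8.99 and 8.49 in PIM (adjusted p = 0.000244). In none of DDIT4, ITGA8 and PIM1 did Pd and PIM arrays overlap. IRF4 was lower in Pd than in PIM by -0.91 (adjusted p = 0.000777), and PSAT1 at -0.55 (0.0851) and MYC at -0.40 (0.0914) did not pass. Leaving out replicate 1, 2 or 3 gave 195, 376 and 175 features higher and 47, 115 and 44 lower, and CRYBB1 lost the call without replicate 1 (0.151) or 3 (0.106), ITGB8 without 3 (0.0977). The Pd arrays are shared by these comparisons, so their values are not independent of those against control.

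**Figure D4:**
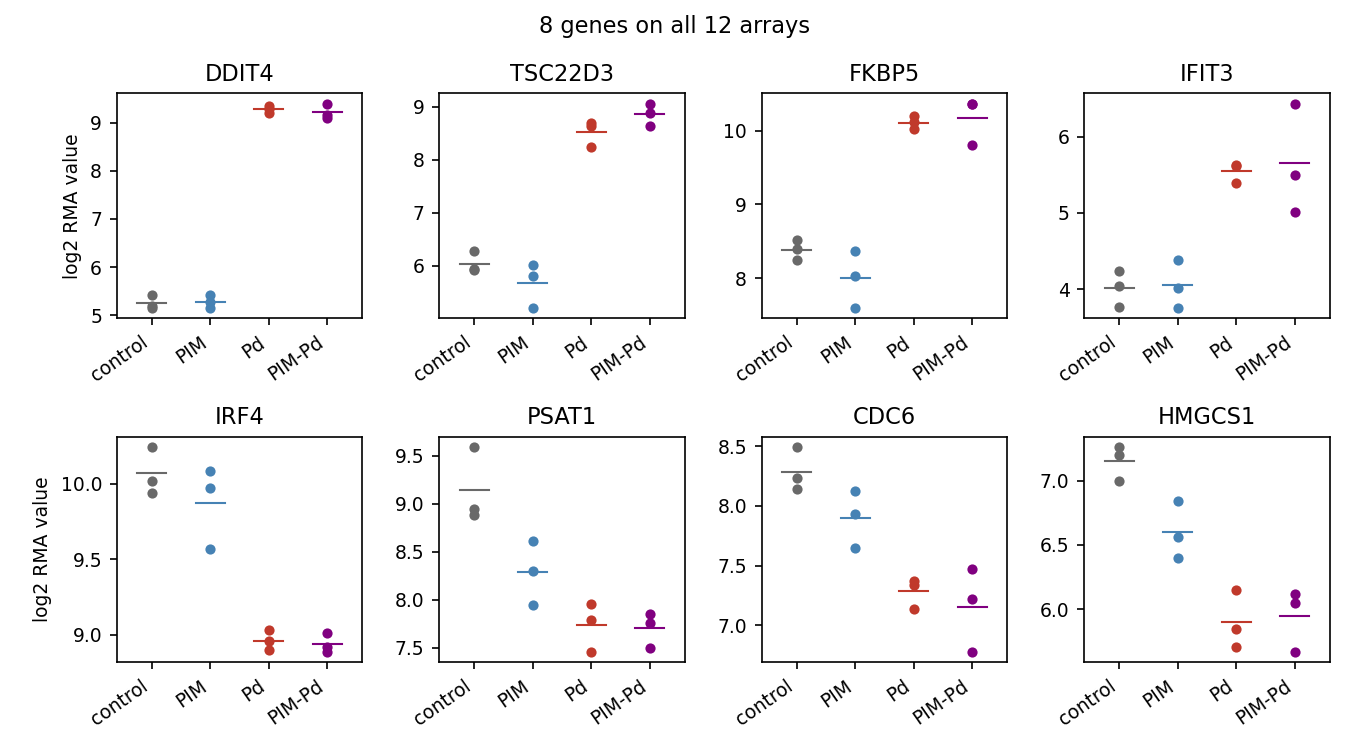
Log2 levels of 8 genes on the 12 arrays by group (control, PIM, Pd and PIM-Pd), each point an array and each line a group mean. DDIT4 lies at 5.15 to 5.42 in control and PIM and at 9.20 to 9.34 in Pd.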

How the data were processed

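Total RNA from MM.1S cells was measured on Clariom S arrays, 3 in each of 4 groups. The authors deposited log2 values made by robust multi-array averaging (RMA), for which their processing notes name oligo 1.44.0 in R 3.5.0. The deposited values were used as they stand for 17710 features. A linear model with treatment group and replicate number as terms was fitted to the 12 arrays in limma 3.58.1 (R 4.3.3) with moderated statistics, which was also tested on simulated data. P-values were adjusted by the Benjamini-Hochberg method over the 17710 features, and a feature was called at an adjusted p under 0.05, with a stricter call that also asked for a difference of at least 1 on the log2 scale. Confidence intervals are at 95%.

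Arrays were grouped by their labels. Pairing follows a label tag that numbers biological replicates 1 to 3 as pairs, and the replicates come from independent experiments. The pairing was checked on values centred within each group: the 18 pairs of arrays with the same number from different groups correlated with a median of 0.0964, and the 36 pairs with different numbers with a median of -0.0443. Centring within groups ties these medians to each other, so the second is no separate evidence on the pairing. For Pd and control the 3 same-number correlations were 0.00851, -0.1 and 0.0546, so the block was both kept and left out.

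Symbols were taken from the study's supplementary gene tables, which hold genes the authors called changed on these arrays. They gave 1 usable symbol to 1901 features, and the other 15809 were tested without a name. The 109 called features without a symbol differed by at most 1.1 on the log2 scale. The text names, among called features with a symbol that differed the same way in all 3 pairs, the 12 with the largest rises and the 12 with the largest falls against control and up to 5 in each direction against PIM-Pd and against PIM (1 gene that this picks as higher than PIM-Pd is left out of the text), together with members of 29 gene lists and of marker lists. The members of this comparison and the lists were chosen with earlier results of these data known. Counts of list members cover named members, and list medians are not given because the names were chosen by change. Promoter motif shares are set beside those of all windows for the same reason.

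The alternatives tried were no replicate block, a random block, a filter at the 25th percentile of mean level, quantile normalization, median centring, an intensity trend in the variance model, fits of the 2 groups compared with and without the block, and leaving out each replicate in turn. Arrays give no count of molecules, so precision rests on their number.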

Additional observations from a re-analysis of the deposited data

How the results depend on the processing

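For Pd against control, the number of rises was 215 to 656 and of falls 70 to 328 when a replicate was left out, against 738 and 443, and within 1.5 times of those counts in the other settings tried. At the 2-fold limit the counts stayed within that factor in all settings. Pd against PIM gave 175 to 376 higher and 44 to 115 lower when a replicate was left out, and 125 lower with the 2 groups alone and no replicate block. Fits that leave out a replicate hold fewer arrays, and their counts also differed by the replicate left out. Between Pd and PIM-Pd the 8 higher features became 13 with no replicate block, with a random block and with the filter on dim features, 36 with the intensity trend, 1 with the 2 groups alone and no block, and 0 to 1 when a replicate was left out; the 3 lower became 1 with no replicate block, 15 with the trend, and 0 to 0 when a replicate was left out. With the 2 groups alone limma called 0 lower without the block and 0 either way with it, beside 1584 and 1844 features at an unadjusted p under 0.05, and leaving out replicates 1, 2 and 3 gave 1277, 2079 and 1212. The cause of these changes in count was not tested.

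Of 278 gene results, the direction and the side of the threshold held for 252 with no replicate block, 253 with a random block, 264 with quantile normalization, 275 with median centring, 260 with the trend, 241 and 235 with the 2 groups alone with and without the block, 191, 218 and 167 without replicates 1, 2 and 3, and 268 of 277 with the filter. Leaving out a replicate turned the sign of 3 genes that were not called: ASPM ran from -0.07 to 0.06, IFIH1 from -0.07 to 0.18 and BCL2 from -0.06 to 0.17, and the cause was not tested.

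Counts of list members called by limma moved as follows when a replicate was left out. The range was 0 to 0 for cereblon, MYC network, MAPK feedback and immunotherapy antigen members called lower and for mitosis and p53 members called higher, each of which had 1 or 2 at an unadjusted p under 0.05. It was 0 to 1 for members called higher among plasma cell, MYC network, replication, G1 and NF-kB genes, and for members called lower among glucocorticoid, mitosis, translation initiation, proteasome, glycolysis, NF-kB, heat shock and p53 genes. It was 0 to 2 for cereblon and unfolded protein response members higher and for fatty acid, respiratory chain and bone factor members lower, and 0 to 11 for replication lower. It was 1 to 1 for plasma cell, mTORC1 and unfolded protein response lower and for MHC class I and immunotherapy antigens higher, 1 to 2 for PIM and interleukin-6 and bone factors higher, 1 to 3 for G1 lower and 1 to 10 for ribosome biogenesis lower. It was 2 to 3 for MAPK feedback higher, 2 to 5 for adhesion higher, 2 to 7 for cholesterol lower, 4 to 5 for ATF4 lower and 6 to 9 for interferon-stimulated genes higher.

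With no replicate block, limma called 7 replication genes and 1 plasma cell gene lower, 0 replication and mitosis genes higher (1 each at an unadjusted p under 0.05), and 0 lower in the MYC network, translation initiation, MAPK feedback and antigens (1 to 6 at an unadjusted p under 0.05). With replicate as a random block the same counts were 0, plasma cell lower was 1, proteasome lower was 2, BCL2 family higher 2 and p53 lower 1. In the other settings a few small counts changed. The filter on dim features gave glucocorticoid, mitosis and translation initiation lower 1 and BCL2 family higher 2. Median centring gave glucocorticoid lower 1 and mitosis higher 0. The trend gave glucocorticoid, mitosis, mTORC1 and p53 lower 1, proteasome lower 2 and BCL2 family higher 2. Quantile normalization gave cereblon and MYC network lower 0, mitosis and p53 higher 0, mitosis, unfolded protein response lower and G1 higher 1, and BCL2 family higher 2. The 2 groups with the replicate block gave glucocorticoid, mitosis, mTORC1 and translation initiation lower 1, translation initiation higher 1, cereblon and MYC network lower 0, proteasome lower 3 and BCL2 family higher 2. The 2 groups with no replicate block gave glucocorticoid, mitosis, translation initiation and p53 lower 1, MYC network lower 0 and higher 2, proteasome lower 2, glycolysis lower 5 and BCL2 family higher 2. The cause was not tested. Signal over background limits dim genes, and no detection values were at hand to set that limit.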

Other observations

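Some called genes outside the lists of the report are given here as single genes, chosen after their values were seen, with no statement on any group they belong to. CIITA, the coactivator that governs class II transcription, was at 5.91, 5.83 and 6.20 in control and at 6.94, 7.07 and 7.10 in Pd (difference 1.06, adjusted p = 0.00241). HLA-DRA went from 10.28, 10.01 and 10.23 to 11.07, 11.03 and 11.04 (difference 0.87, adjusted p = 0.000356), and HLA-DRB1 rose by 1.15 (0.000491). The groups did not overlap in CIITA or HLA-DRA. HLA-DPA1 rose by 0.67, with an adjusted p of 0.0732 without replicate 3, and HLA-DMB by 0.63, with 0.0741 and 0.0861 without replicates 2 and 3. Progranulin, GRN, rose by 1.14 from 7.69, 8.08 and 7.96 to 9.09, 8.99 and 9.07 (adjusted p = 0.000774), the fucosidase FUCA1 by 1.39 (2.11e-05) and cathepsin S, CTSS, by 0.85 (0.00113). The inflammatory caspase CASP4 rose by 1.29 from 8.11, 8.02 and 8.03 to 9.20, 9.32 and 9.50 (adjusted p = 0.000126), and CFLAR, an inhibitor of caspase 8, by 1.02 (0.000209). TNFSF10, the death ligand TRAIL, rose by 1.20 (0.00276, and 0.0861 without replicate 3).

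The TGF-beta receptor TGFBR2 was at 5.27, 5.80 and 6.01 in control and at 7.03, 7.09 and 7.48 in Pd, without overlap (difference 1.51, adjusted p = 5.3e-05). SMAD1, a transducer of BMP signals, rose by 0.98 (0.00262), and the BMP receptor BMPR2 by 1.26 (0.00262, and 0.0509 and 0.0783 without replicates 1 and 3). MYB, a transcription factor of blood progenitors, fell by 1.14 from 8.11, 8.70 and 8.51 to 7.05, 7.56 and 7.29, without overlap (adjusted p = 0.000222), and ETS1 fell by 0.96 (0.00393, and 0.0732 without replicate 3). Of a pair of interferon-induced genes, RTP4 rose by 1.33 (0.000107), while the chemokine CXCL10 fell by 1.21, from 5.64, 4.47 and 5.14 to 3.83, 3.96 and 3.84 (adjusted p = 0.0133, and 0.0506 and 0.128 without replicates 1 and 3).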
